A study of Homo sapiens with 121 samples.

Results

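Among single human embryonic stem cells (hESCs) of the WA26 line, 24 of 121 cells had a PluriNet score below 3, and they were divided by telomere length into 10 long telomere cells (the Long columns) and 14 shorter telomere cells (5 Medium and 9 Short columns). The remaining 97 cells, 71 long and 26 medium or short, had a score of 3 or more. The members were chosen by the PluriNet score, the mean natural logarithm of TPM + 1 over 299 pluripotency network genes, as the study's supplement lists it, and then by the telomere class in the sample title. TPM is the relative abundance of a gene's transcripts in 1 cell, scaled by gene length and by the cell's total. The cells came from an undifferentiated culture in E8 medium on Matrigel, passaged with EDTA, and had no treatment or genotype that set the groups apart. Each was processed by scT&R-seq, in which polyadenylated RNA is captured on oligo-dT beads for Smart-seq2 while the genomic DNA of the same cell is used for quantitative PCR of telomere repeats against a reference gene. No separate cultures are named for the cells, so each side stands as 1 sample: the differences below come with the SD over single cells and with the share, in percent, of the 140 pairs of 1 long and 1 shorter telomere cell where the long one had the higher value, and with no p-value.

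Telomeres are repeats that cap chromosome ends. They are bound by shelterin, a complex of TERF1 and TERF2, which bind double-stranded repeats, TINF2, which bridges them, TERF2IP, POT1, which binds the single-stranded overhang, and ACD (TPP1), which recruits telomerase. Pluripotent stem cells keep telomerase active, and PluriNet is a network of proteins shared by pluripotent cells that includes many genes of DNA replication and the cell cycle.

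When the score was computed again from the TPM values over the 296 PluriNet genes read, it reached 2.99 in the long telomere cells Long_46 and Long_52 and 3.01 in Medium_19, the highest of the 24, whereas the nearest cells outside the limit were Long_1 at 3.05, Medium_6 at 3.05 and Long_19 at 3.07. The mean number of genes above TPM 1 was 4714 ± 844 (SD, n = 10) in long and 4778 ± 1426 (n = 14) in shorter telomere cells, a difference of -64.0, and the long telomere cell had more in 45.0% of pairs. The medians lay further apart, at 4292 in long and 5360 in shorter telomere cells, and the 5 medium telomere cells had 5187 ± 627, so the near-equal means did not carry over to the medians. The ranges differed, since the long telomere cells lay between 4002 and 6239 and the shorter ones between 2030 and 6407. The number of detected genes is no measure of reads, which TPM does not keep. The score itself was not equal: long telomere cells had 2.70 ± 0.36, medium ones 2.79 ± 0.19 and short ones 2.03 ± 0.44, so the short telomere cells were the lowest within the selected range. The 50 highest genes also held more of the TPM in shorter telomere cells. Their summed TPM was 249201 ± 28694 in long against 332767 ± 71311 in shorter telomere cells and was higher in the long telomere cell in 13.6% of pairs. It was 274528 ± 49751 in medium and 365122 ± 61061 in short telomere cells. In Short_12 alone, MIR6723 was at 93188 and MIR4461 at 111652 TPM. The part of score and composition in the differences below was not tested beyond the values given for narrower ranges of score or detected genes and for another scaling. Those ranges did not even out the detected genes: the difference of the means, long minus shorter, was -754 in the shared range of detected genes and was also larger in size than -64.0 among cells with scores of 2.3 to 3. They also changed the mix of classes, as all 5 medium telomere cells stayed in both. Of the short ones, Short_4, Short_9 and Short_12 stayed at scores of 2.3 to 3. Short_4, Short_6, Short_7 and Short_8 stayed in the shared range of detected genes.

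**Figure D1:**
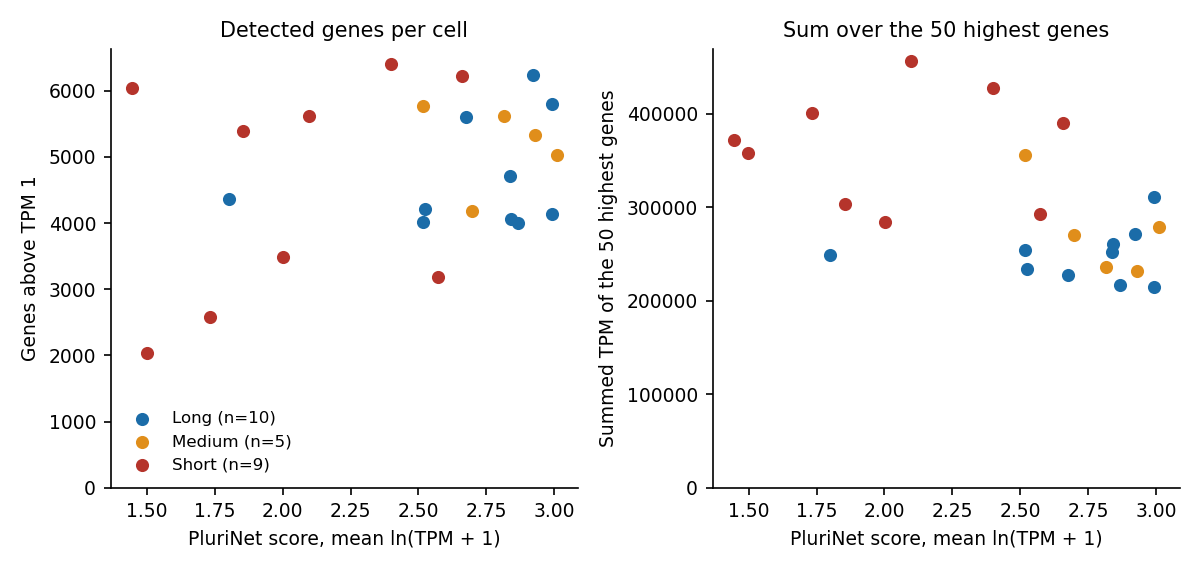
Each point is 1 of the 24 cells, by its recomputed PluriNet score (x axis, mean ln(TPM + 1)) and by the number of genes above TPM 1 (left) or the summed TPM of the 50 highest genes (right). Long telomere cells mostly sit at scores of 2.52 to 2.99, with Long_4 alone at 1.80, while short telomere cells spread from 1.45 to 2.66 and hold the highest sums.

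Some markers of hESCs were detected in every cell of both sides, and others only in part of the cells. POU5F1, the central pluripotency transcription factor, was above TPM 1 in all 24 cells, with a median of 980.4 TPM in long and 595 TPM in shorter telomere cells. L1TD1 and LIN28A, RNA-binding proteins of hESCs, were likewise above TPM 1 in all 24 cells, as was DPPA4. Other hESC markers were less even. NANOG was above TPM 1 in 10 long and 10 shorter telomere cells, SOX2 in 8 and 10, TDGF1 in 10 and 12 and DNMT3B in 9 and 12. ZFP42 was at 0.63 TPM in Long_17 and at 0.1 TPM in Short_13 and Short_15. Of 10 fibroblast markers, 8 were at 0 in all long and 6 in all shorter telomere cells, among them COL3A1, LUM, DCN and POSTN. Their summed TPM ranged from 0.400 to 608 in long and from 0.180 to 494 in shorter telomere cells, mostly from THY1, which hESCs also express. Of 23 germ layer and lineage markers, 12 were at 0 in all long and 11 in all shorter telomere cells, SOX17, FOXA2, GATA4, GATA6 and EOMES on both sides, and their summed TPM ranged from 2.97 to 167 and from 0 to 247. FGF5, a growth factor of the epiblast and a member of that list, reached 9.9 TPM in long and 92.5 TPM in shorter telomere cells, with a difference of -1.63 (-0.64 from medium) and 27.9% of pairs, and the difference was -0.50 without the 5 cells that held few low values (Long_37, Long_46, Short_6, Short_8 and Short_12).

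Across 5171 genes with a mean of at least 10 TPM over the 24 cells and above TPM 1 in at least 6, the difference of mean log2(TPM + 1), long minus shorter, reached 1 (a 2-fold difference on this scale, which understates that of low genes) for 1554 genes (30.1%) and was -1 or less for 789 genes (15.3%). The median difference was 0.31 and the range ran from -4.72 to 4.87. Far fewer genes separated the cells: 132 genes (2.55%) also had the long telomere cell higher in at least 80% of pairs, and 19 genes (0.367%) were lower by the same measure, in at most 20% of pairs. Among the 97 cells with a score of 3 or more, with many more cells behind each mean, the same genes gave 43 (0.832%) differences of at least 1 and 13 (0.251%) of -1 or less.

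Medium and short telomere cells did not stand at the same distance from the long ones. Against the 9 short telomere cells, 2099 genes (40.6%) were higher by at least 1 and 948 (18.3%) lower, with a median difference of 0.63. Against the 5 medium telomere cells, 936 genes (18.1%) were higher and 1201 (23.2%) lower, with a median of -0.11. Of the 1554 genes higher in long telomere cells, 724 (46.6%) were also higher by at least 1 than in medium telomere cells and 312 (20.1%) were not higher than in medium telomere cells at all. A total of 660 genes (12.8%) passed 1 against medium and against short telomere cells each, and 281 genes (5.43%) passed -1 against each. The excess of genes higher in long telomere cells, 66.3% of those past 1 in either direction, also rested on the scale and the cells. It was 46.4% when cells were scaled by a median ratio taken from the 682 genes that were above TPM 0 in all 24 cells, 50.4% among the 9 long and 8 shorter telomere cells with scores of 2.3 to 3, and 51.4% among the 10 and 9 cells in the shared range of 4002 to 6239 detected genes. Both ranges kept all medium telomere cells and lost short ones, so score, detected genes and mix of classes cannot be told apart there. A direction for the transcriptome as a whole could therefore not be given.

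**Figure D2:**
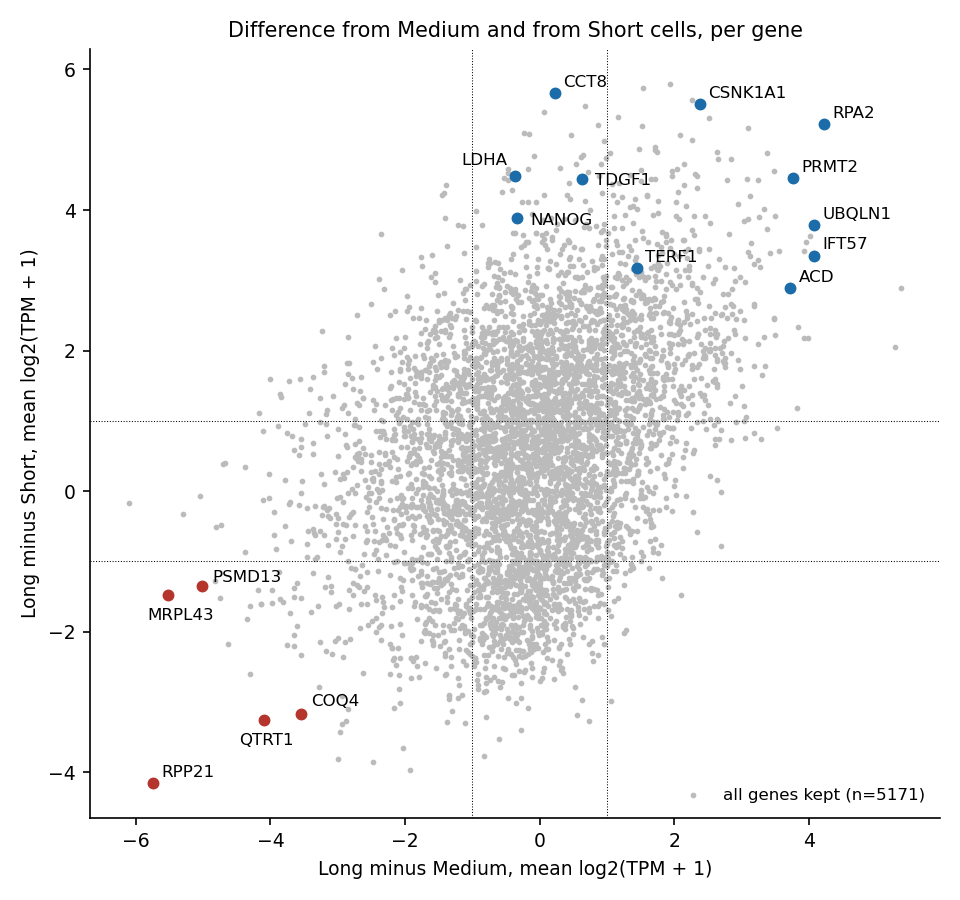
Each grey point is 1 of 5171 genes, by its difference of mean log2(TPM + 1) between long and medium (x axis) and between long and short telomere cells (y axis), with dotted lines at 1 and -1. RPA2, at 4.23 and 5.22, and RPP21, at -5.74 and -4.15, lie far out on both axes, whereas CCT8, at 0.23 and 5.66, LDHA, at -0.36 and 4.49, and NANOG, at -0.33 and 3.88, lie near 0 on the x axis alone.

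RPA2, a subunit of the replication protein A complex that coats single-stranded DNA and a PluriNet gene, had the largest difference and the highest percentage of pairs. It was detected in all 10 long telomere cells, at 24.8 to 855 TPM with a median of 87.8 TPM, and in 7 of 14 shorter telomere cells, where the median was 0.885 TPM. Only 2 shorter telomere cells, 1 at 106 and 1 at 32.6 TPM, reached the lowest long telomere cell. On the log2(TPM + 1) scale it was 6.87 ± 1.78 (n = 10) against 2.00 ± 2.22 (n = 14), a difference of 4.87 with the long telomere cell higher in 94.3% of pairs, and the difference was 3.82 among cells with scores of 2.3 to 3, 4.31 in the shared range of detected genes and 4.73 under median ratio scaling. The gene lies on chromosome 1 at 28218035 to 28241257 on the minus strand (GRCh37) and overlaps no other annotated gene there. In cells with a score of 3 or more, its difference was -0.09.

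The other 4 genes with the highest percentages of pairs were IFT57, CSNK1A1, TERF1 and FAM60A. IFT57, a subunit of the intraflagellar transport complex, was above TPM 1 in 9 of 10 long telomere cells, with a median of 24.8 and a highest value of 160 TPM, and in 4 of 14 shorter telomere cells, with a median of 0.18 and a highest value of 29.1 TPM; the difference was 3.61 with 93.6% of pairs. Medium telomere cells were the lowest for this gene, with 1 of 5 above TPM 1. CSNK1A1, the alpha isoform of casein kinase 1, ran from 7.79 to 372 TPM with a median of 218 TPM in long telomere cells and from 0 to 188 TPM with a median of 4.08 TPM in shorter ones, a difference of 4.39 with 92.9% of pairs. FAM60A, a subunit of the SIN3 histone deacetylase complex, was at 112 to 591 TPM in long telomere cells, and 3 of 14 shorter telomere cells lay within or above that range. Its difference was 3.84, of which medium telomere cells showed 1.17 and short telomere cells 5.33.

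**Figure D3:**
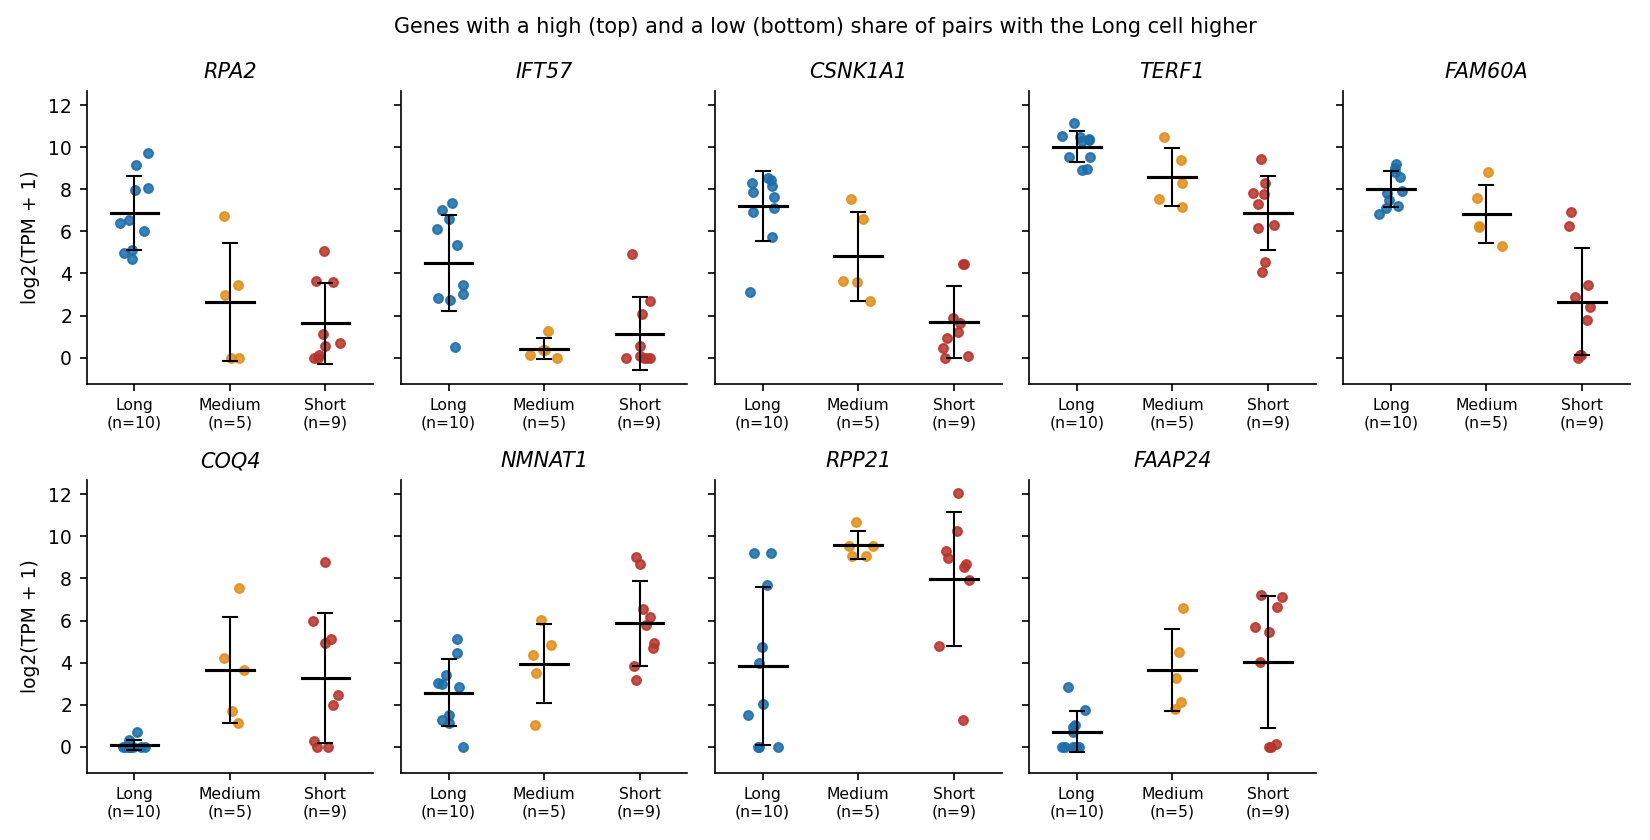
Points are single cells, by log2(TPM + 1) on the y axis and telomere class on the x axis, with the mean (thick line) and SD (bars) of 10 long, 5 medium and 9 short telomere cells; the top row holds the 5 genes with the highest percentage of pairs in favour of the long telomere cell and the bottom row 4 genes with a low one. In RPA2 and IFT57 medium and short telomere cells are low alike, and COQ4 stays at or under 0.66 TPM in every long telomere cell. In FAM60A the mean of medium telomere cells lies below that of long ones but nearer to it than to that of short ones.

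The 12 genes with the largest positive differences, RPA2 to PPAP2A, lay between 4.04 and 4.87, and each was higher than in medium telomere cells by at least 1.53. They had diverse known roles. FKBP1A, a peptidyl-prolyl isomerase bound by FK506, was at 75.9 to 908 TPM in long telomere cells, and 4 of 14 shorter telomere cells reached that range, all of them medium; its difference was 4.42. PRMT2, a protein arginine methyltransferase, had a median of 63.3 TPM in long telomere cells and a highest value of 7.33 TPM in shorter ones, with a difference of 4.20. TMEM70, an assembly factor of ATP synthase, was above TPM 1 in 7 of 10 long, 3 of 5 medium and 0 of 9 short telomere cells, with a difference of 4.30. COPS5, the catalytic subunit of the COP9 signalosome, differed by 4.23 and MTA3, a subunit of the NuRD chromatin complex, by 4.17. WDR61, a subunit of the PAF1 complex, differed by 4.05 and ALG5, which makes a sugar donor for N-glycosylation, by 4.32. The remaining 3 of the 12 were MIEN1 at 4.42, MLF2 at 4.38 and PPAP2A, a lipid phosphatase, at 4.04. In PPAP2A the highest value of all, 1596 TPM, belonged to a medium telomere cell. In cells with a score of 3 or more, the 12 genes differed by -0.11 to 0.53. They were picked at the extreme of the low-score cells, which by itself makes their differences large there.

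At the other end, RPP21, a protein subunit of the tRNA-processing enzyme ribonuclease P, had the most negative difference, -4.72. It was above TPM 1 in all 14 shorter telomere cells, with a median of 536 TPM, and in 7 of 10 long telomere cells, with a median of 9.00 TPM. Both sides held exceptions, since 3 long telomere cells were at 204 to 598 TPM and 1 short telomere cell at 1.44 TPM. All 5 medium telomere cells lay between 533 and 1643 TPM, and the difference from medium was -5.74. The gene overlaps the TRIM39-RPP21 readthrough locus on chromosome 6 (30312908 to 30314661, plus strand, GRCh37), whose reads cannot be told apart here.

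COQ4, which acts in coenzyme Q synthesis, had the lowest percentage of pairs, 10.0%. It was above TPM 1 in 0 of 10 long telomere cells, the highest being 0.66 TPM, and in 11 of 14 shorter telomere cells, all 5 medium ones included, up to 440 TPM. Its difference was -3.31, and it was -3.78 among cells with scores of 2.3 to 3. FAAP24, a DNA-binding partner of the Fanconi anaemia core complex, was at most 6.23 TPM in long telomere cells and above that in 9 of 14 shorter ones, with a difference of -3.18. APITD1, a centromere protein that also acts in the Fanconi anaemia pathway, was above TPM 1 in 2 of 10 and 9 of 14 cells, with a difference of -3.13. NMNAT1, which makes NAD in the nucleus, had medians of 6.64 and 28.5 TPM, a difference of -2.60 and 15.0% of pairs.

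The other protein-coding members of the 12 most negative genes were less evenly separated. QTRT1, which puts queuosine into tRNA, was above TPM 1 in 2 of 10 long and 11 of 14 shorter telomere cells, with a difference of -3.55. MRPS17, a subunit of the mitochondrial ribosome, differed by -3.26 and MTIF3, a mitochondrial translation initiation factor, by -3.20. MTIF3 was above TPM 1 in 4 long telomere cells, 3 of them at 397 to 484 TPM, and in cells with a score of 3 or more its difference had the other sign, 1.27. SMCO4 differed by -3.24 and FAM216A by -3.08. FAM216A was detected in a single long telomere cell, Long_46, at 137 TPM. SERF2-C15ORF63, at -3.52, is a readthrough of neighbouring genes, and its reads cannot be separated from theirs.

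The other 2 of the 12 carry miRNA names. MIR1273A differed by -3.36 (-1.29 without Long_37, Long_46, Short_6, Short_8 and Short_12) and MIR3655 by -3.05, each scored from polyadenylated RNA and not as a mature miRNA. MIR3655 was above TPM 1 in 2 of 10 long, 4 of 5 medium and 5 of 9 short telomere cells. The stretch to which its reads were assigned is only 83 bases long and lies within the IK gene on chromosome 5 (140027429 to 140027511, plus strand, GRCh37), so reads of IK and of the hairpin cannot be told apart. Its RefSeq hairpin is shown to make that length plain, in lower case throughout, at chr5:140647844-140647926 on the plus strand of GRCh38.p14:
MIR3655 hairpin: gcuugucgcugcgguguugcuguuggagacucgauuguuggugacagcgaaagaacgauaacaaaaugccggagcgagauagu

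Shelterin genes were followed as a list of 6, of which 4 passed the expression filter. Of these 4, 2 (50.0%) differed by at least 1 and none by -1 or less, beside 30.1% and 15.3% of all genes. A share of only 4 genes is coarse. Their median difference was 1.48 beside 0.31 over all genes. TERF1 was at 486 to 2276 TPM with a median of 1278 TPM in long and at 15.9 to 1431 TPM with a median of 203 TPM in shorter telomere cells. Only 3 of the 14 shorter telomere cells reached the lowest long telomere cell. The difference of mean log2(TPM + 1) was 2.55 (10.02 ± 0.74 against 7.47 ± 1.79) with 92.1% of pairs, 1.44 from medium and 3.17 from short telomere cells. It was 1.81 among cells with scores of 2.3 to 3 and 2.55 in the shared range of detected genes, and in cells with a score of 3 or more it was 0.63 with 77.8% of pairs. TERF1 was named by the study from these cells, so its direction here is not independent evidence.

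ACD was detected less evenly. It was above TPM 1 in 7 of 10 long telomere cells, 5 of them at 59.8 to 241 TPM, in 1 of 5 medium telomere cells at 1.12 TPM and in 3 of 9 short telomere cells with 1 at 64.3 TPM. The difference was 3.19 with 81.4% of pairs, 3.72 from medium and 2.89 from short telomere cells. Its locus on chromosome 16 (67691415 to 67694713, minus strand, GRCh37) overlaps CARMIL2 on the annotation. In cells with a score of 3 or more, where it was at 2.42 in long and 2.28 in shorter telomere cells, the difference was 0.14. The other members gave no comparable pattern: TERF2 differed by 0.41 (-0.11 under median ratio scaling) with 51.4% of pairs, TERF2IP by -0.37 with 63.6% of pairs, TINF2 by 0.07 with 1 of 10 and 3 of 14 cells above TPM 1, and POT1 was never above TPM 1. The shelterin score, the mean log2(TPM + 1) over the 6 genes, was 3.06 ± 0.72 in long telomere cells, 2.11 ± 0.60 in medium and 2.07 ± 0.79 in short ones.

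Homologous recombination and checkpoint genes showed the nearest values to that. Of 18 genes, 11 passed the filter, 8 differing by at least 1 (beside 30.1% of all genes) and 2 by -1 or less (beside 15.3%), with a median of 1.58. PluriNet, which chose the cells, holds 7 of the 11, among them RPA1, RPA2, RPA3, CHEK1 and CHEK2, so their values are a description of the selected cells, in which the score was unequal. Of the 4 others, 2 differed by at least 1 and 1 by -1 or less. The score of the whole list was 2.56 ± 0.55 in long telomere cells, 1.89 ± 0.48 in medium and 1.53 ± 0.67 in short ones. All subunits of replication protein A passed 1 against medium and short telomere cells each, RPA1 with a difference of 1.36, RPA2 with 4.87 and RPA3 with 2.09. RPA1 and RPA3 were added after their values were seen and were less stable than RPA2: RPA1 was 0.82 without Long_46, and among cells with scores of 2.3 to 3 RPA1 was at 0.85 and RPA3 at 0.65. CHEK2, a DNA damage checkpoint kinase, differed by 2.17, although its values overlapped widely, with 785 TPM in Long_4 and 464 TPM in Short_14. In contrast, CHEK1, the kinase of the replication checkpoint, differed by -1.14 (between -0.84 and -0.98 when any of 9 cells was left out) and TOPBP1, which activates its upstream kinase, by -1.47. TOPBP1 was low, with medians of 0.1 and 0.5 TPM, and was above TPM 1 in 2 of 10 long and 6 of 14 shorter telomere cells. Its difference from medium was -0.35. MSH6, a mismatch repair protein and a PluriNet gene, was at 0 to 404 TPM with a median of 68.5 TPM in long and at 0 to 46 TPM with a median of 2.38 TPM in shorter telomere cells, a difference of 3.76 with 87.5% of pairs. The study had also named MSH6 from these cells, so its direction here is not independent evidence. PMS1 and PMS2, which also act in mismatch repair, differed by 0.78 and 0.77, with 57.1% and 42.9% of pairs, and PMS1 was at -1.26 from medium and 1.91 from short telomere cells. Among telomerase holoenzyme and assembly genes, 9 passed the filter, and 1 of them (11.1%, beside 30.1% of all genes) differed by at least 1. It was PARN, an RNA-trimming enzyme, at 1.29 (0.47 without Long_4 and 0.90 without Long_2). None differed by -1 or less, beside 15.3% of all genes. The score of that list was 4.26 ± 1.19 in long against 4.02 ± 0.79 in shorter telomere cells. None of 5 Ku and end joining genes passed 1 in either direction.

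The study named genes whose levels followed telomere length in these cells, a choice made on the same data. Of the 8 positive ones, 6 passed the filter and all 6 differed by at least 1 (beside 30.1% of all genes), with a median of 2.43. UBQLN1, a ubiquitin receptor that delivers proteins to the proteasome, was above TPM 1 in 8 of 10 long and 3 of 14 shorter telomere cells, with a difference of 3.89 (4.08 from medium). AIMP2, a scaffold of the tRNA synthetase complex and a PluriNet gene, differed by 2.32, MELK, a mitotic kinase, by 1.61 and COMMD4 by 1.51. MELK was the only one of the 6, which include TERF1 and MSH6, under 1 against medium telomere cells, at 0.15. Of the 8 negative ones, 7 passed the filter, 4 with differences of -1 or less (beside 15.3% of all genes) and a median of -1.10. RPS15, a ribosomal protein, was at 1268 to 5071 TPM in long and at 3039 to 15228 TPM in shorter telomere cells, and 8 of 14 shorter telomere cells exceeded the highest long telomere cell, with a difference of -0.90 and 18.6% of pairs. ATP5I, a subunit of ATP synthase, had medians of 2610 and 6286 TPM, a difference of -1.12 (-0.91 without Long_4) and 18.6% of pairs. For SNRPD2, a core spliceosomal protein, the difference was -0.91. UTP11L differed by -1.10 (between -0.75 and -0.93 when any of Long_4, Long_69, Short_6 or Short_7 was left out), GATAD1 by -1.44 and SUGT1P3 by -1.99, whereas RPL38 was close to even at -0.22. None of the 7 was at -1 or less against medium and short telomere cells each. Against medium telomere cells alone, UTP11L was at -0.11, GATAD1 at -0.16 and SUGT1P3 at -0.80. The difference of the negative list's score was -0.66 from medium and -1.45 from short telomere cells.

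Pluripotency genes differed within the low-score cells as well, although the choice of cells had drawn on PluriNet, which holds TDGF1, NANOG, SALL4, DNMT3B and POU5F1. Of 23 genes in the core list, 15 passed the filter, 7 (46.7%, beside 30.1% of all genes) with a difference of at least 1 and 1 of -1 or less, with a median of 0.86. Of the 9 that are not in PluriNet, 3 differed by at least 1, with a median of 0.26 beside 0.31 over all genes. TDGF1, the Nodal co-receptor, was at 192 to 1293 TPM with a median of 723 TPM in long and at 0.600 to 683 TPM with a median of 98.0 TPM in shorter telomere cells, a difference of 3.08 with 90.0% of pairs. Its medium telomere cells, at 101 to 683 TPM, lay largely within that range, with a difference from medium of 0.63, against 4.44 from short telomere cells. NANOG, a transcription factor of the core circuit, differed by 2.38 overall and by -0.33 from medium, GDF3, a TGF-beta ligand, by 2.35 and -0.05, and DNMT3B, a de novo DNA methyltransferase, by 1.41 and -0.51. GDF3 varied within every class, with 0.36 and 1.91 TPM in 2 medium telomere cells and under 1 TPM in 3 long ones. Among cells with scores of 2.3 to 3 the difference was 0.49 for NANOG, 0.65 for DNMT3B and 1.92 for GDF3. SALL4, a zinc finger transcription factor, and LIN28B, which blocks let-7 processing, had higher means than in either class, SALL4 by 1.95 and 2.23 and LIN28B by 2.38 and 1.39 from medium and short telomere cells. Their cells were uneven, as SALL4 was above TPM 1 in 5 of 10 long and 4 of 14 shorter telomere cells. LIN28B was above TPM 1 in 8 of 10 and 9 of 14, and its highest value, 184 TPM, belonged to Short_14. DPPA4, a chromatin-associated protein, was at 127 to 482 TPM in long and at 11.1 to 325 TPM in shorter telomere cells, with a difference of 1.25. In contrast, POU5F1 differed by 0.62 (-0.02 under median ratio scaling) with 70.0% of pairs and wide overlap, SOX2 by 0.26 (-0.10 under that scaling, as are the next values in brackets), L1TD1 by -0.07 (-0.72) and LIN28A by -0.48 (-1.12). UTF1, a chromatin protein of undifferentiated cells, was above TPM 1 in 2 of 10 long and 7 of 14 shorter telomere cells, with a difference of -1.75. The core score was 3.63 ± 0.52 in long telomere cells, 3.58 ± 0.26 in medium and 2.59 ± 0.49 in short ones.

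Genes of energy metabolism differed unevenly. Of 16 glycolysis and lactate genes that passed the filter, 7 (43.8%, beside 30.1% of all genes) differed by at least 1 and none by -1 or less, with a median of 0.65, and the difference of the list score from medium telomere cells was 0.15. PGAM1, phosphoglycerate mutase, had medians of 724 and 170.5 TPM and differed by 2.47 (0.96 from medium), and LDHA, which makes lactate, had medians of 343 and 63.8 TPM and differed by 2.75. LDHA was at 27.1 to 642 TPM in long and at 72.9 to 818 TPM in medium telomere cells, and its difference was 4.49 from short telomere cells and 0.69 among cells with scores of 2.3 to 3. PFKM, a phosphofructokinase, differed by 1.92 and SLC16A1, a lactate transporter, by 1.5. LDHA, PFKM and SLC16A1 are 3 of 4 glycolysis genes that the study took from earlier work. The study reported these genes as higher with long telomeres in the same data, so their direction here is not independent evidence. The remaining gene, ENO3, was at 0 TPM in every low-score cell. Among cells with scores of 2.3 to 3, PFKM differed by 0.54 and SLC16A1 by 0.50.

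In complexes I to IV of the respiratory chain, smaller shares of genes passed 1 in either direction than among all genes. Of 38 complex I genes, 6 (15.8%) differed by at least 1 and 3 (7.89%) by -1 or less, below the 30.1% and 15.3% of all genes, with a median of 0.02. Of 24 genes of complexes II to IV the counts were 6 (25.0%) and 3 (12.5%), with a median of 0.30. Of 16 ATP synthase genes 8 (50.0%) and 1 (6.25%) passed, with a median of 0.98, but the difference of the list score, 0.90, was -0.05 from medium telomere cells, 0.33 under median ratio scaling and 0.31 among cells with scores of 2.3 to 3. SDHC, a membrane anchor of complex II, was at 31.3 to 522 TPM in long telomere cells and at 0.1 to 199 TPM in shorter ones, with a difference of 3.48. UQCRFS1, the Rieske iron-sulfur protein of complex III, had medians of 729 and 69.2 TPM and a difference of 3.46, both genes with 90.7% of pairs. ATP5C1 and ATP5F1, ATP synthase subunits, differed by 2.70 and 2.18. In the other direction, UQCRQ, a small subunit of complex III, differed by -1.22 and COX5B, a subunit of cytochrome c oxidase, by -1.25, the long telomere cell being higher in 25.7% and 22.9% of pairs. Long_4 was by far the lowest long telomere cell in COX5B, at 21.9 TPM, and in UQCRQ, at 6.39 TPM, and without it the difference was -0.64 for each. The 6 oxidative phosphorylation genes that the study had picked on these cells had a median of -0.77. Of these, 2 (33.3%, beside 15.3% of all genes) were at -1 or less, UQCRQ and ATP5I. Without Long_4 these 2 were at -0.64 and -0.91, and the difference of the score of the 6 genes went from -0.76 to -0.42.

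The proteasome was near even between long and medium telomere cells and lower in short ones. Of its 43 genes, 20 (46.5%, beside 30.1% of all genes) differed by at least 1 and 1 (2.33%, beside 15.3%) by -1 or less, with a median of 0.85. The proteasome score was 6.64 ± 0.80 in long and 6.65 ± 0.40 in medium, but 5.11 ± 0.91 in short telomere cells. Still, 10 of the 43 genes passed 1 against both classes, beside 12.8% of all genes. They were led by PSMD10, an assembly chaperone that differed by 3.69, and PSMC2, an ATPase of the regulatory particle, that differed by 3.67. PSMD13, a subunit of the lid, was the exception at -2.66, as 4 of 5 medium telomere cells were at 66 to 430 TPM and no long telomere cell exceeded 20.4 TPM.

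For the CCT chaperonin, which folds actin and tubulin, and prefoldin, the score was 6.48 ± 1.00 in long telomere cells, 7.25 ± 0.51 in medium and 4.98 ± 1.39 in short ones. CCT8 had a median of 334 TPM in long telomere cells and a difference of 3.72, with 0.23 from medium and 5.66 from short telomere cells, and CCT5 a difference of 1.98. PFDN2, a prefoldin subunit, differed by -2.43. Of 75 mitochondrial ribosomal proteins, 25 (33.3%) differed by at least 1 and 10 (13.3%) by -1 or less, shares near the 30.1% and 15.3% of all genes, with a median of 0.46. MRPS9 at 4.02 and MRPL15 at 3.72 stood at one end and MRPL43 at -2.92 at the other, and MRPL43 was at 132 to 313 TPM in 4 of 5 medium telomere cells and at no more than 7.77 TPM in any long one. Cytosolic ribosomal proteins had few large differences, with 2 of 79 at 1 or more and 3 at -1 or less. These were smaller shares than the 30.1% and 15.3% of all genes. The median of these proteins, 0.24, lay near the 0.31 over all genes.

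**Figure D4:**
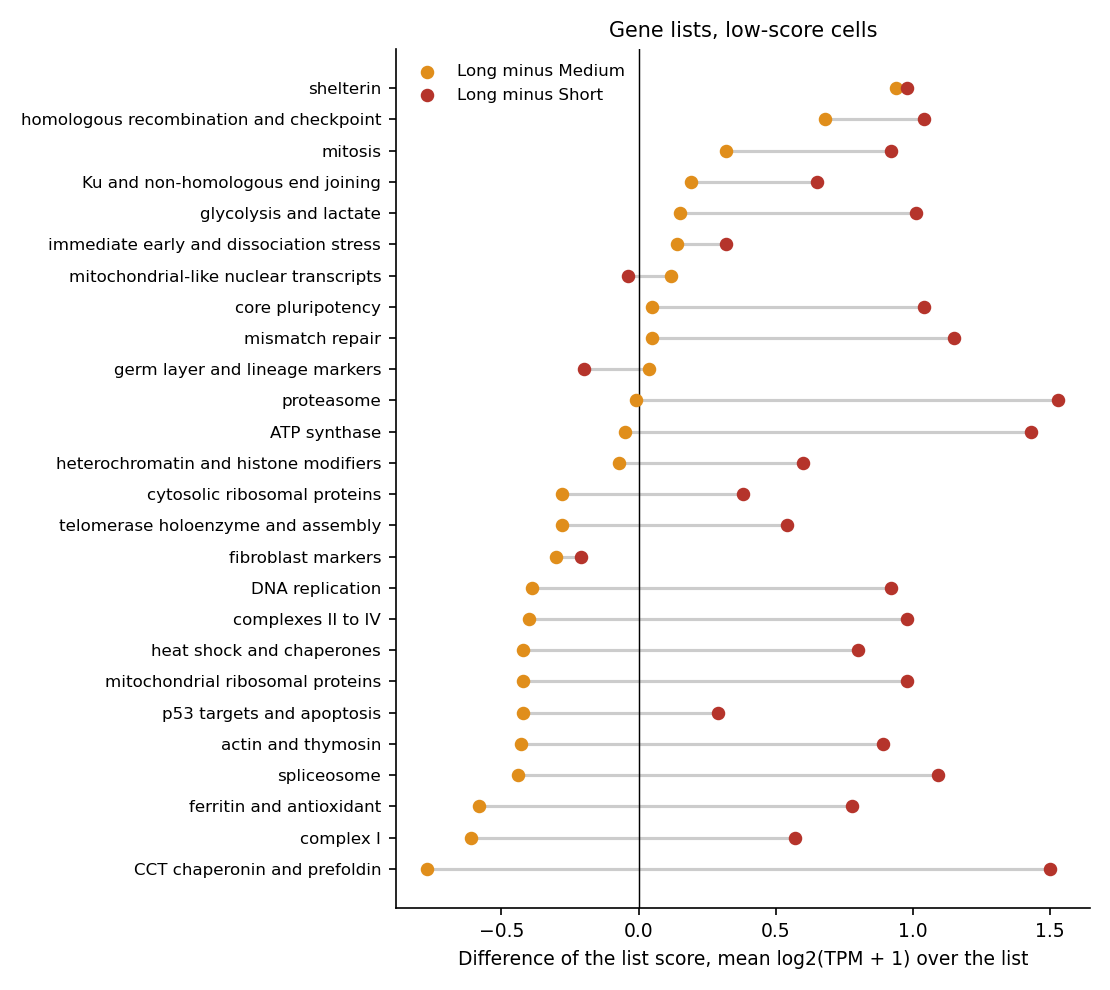
For each gene list other than those taken from the study (y axis), points give the difference of the list score, the mean log2(TPM + 1) over its genes (x axis), between long and medium (orange) and between long and short telomere cells (red). Shelterin, at 0.94 and 0.98, and homologous recombination and checkpoint genes, at 0.68 and 1.04, head the order by the difference from medium, while proteasome genes lie at -0.01 and 1.53 and CCT chaperonin and prefoldin at -0.77 and 1.5.

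Cell cycle genes lay between these. Of 28 DNA replication genes that passed the filter, 14 (50.0%, beside 30.1% of all genes) differed by at least 1 and 1 by -1 or less, with a median of 0.96, but their score was 3.59 ± 0.77 in long telomere cells, 3.98 ± 0.50 in medium and 2.67 ± 0.98 in short ones. DUT, which removes dUTP, differed by 2.16, with 0.24 from medium and 0.57 among cells with scores of 2.3 to 3, and CDT1, a licensing factor of replication origins and a PluriNet gene, by -2.22. CDT1 was low, with medians of 0.1 and 1.8 TPM, and was above TPM 1 in 2 of 10 long and 8 of 14 shorter telomere cells. Of 22 mitosis genes, 11 (50.0%, beside 30.1% of all genes) differed by at least 1 and 1 (4.55%, beside 15.3%) by -1 or less. Their score was 3.77 ± 1.40 in long telomere cells, 3.45 ± 1.18 in medium and 2.85 ± 1.20 in short ones. The difference of that score, 0.71, was 0.27 among cells with scores of 2.3 to 3. KIF11, a spindle motor, was above TPM 1 in 9 of 10 long and 5 of 14 shorter telomere cells, with a difference of 2.15 and 2.43 from medium, and CCNB2, a mitotic cyclin in PluriNet, differed by 2.75. CCNB2 was at 827 to 1140 TPM in 3 long telomere cells and at 1.01 TPM or less in 2 others, so that the cells of one side spanned nearly the whole range. Of 33 spliceosome genes, 12 (36.4%, near the 30.1% of all genes) differed by at least 1 and 1 by -1 or less, with a score of 6.13 ± 0.76 in long telomere cells, 6.56 ± 0.32 in medium and 5.04 ± 0.85 in short ones.

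**Figure D5:**
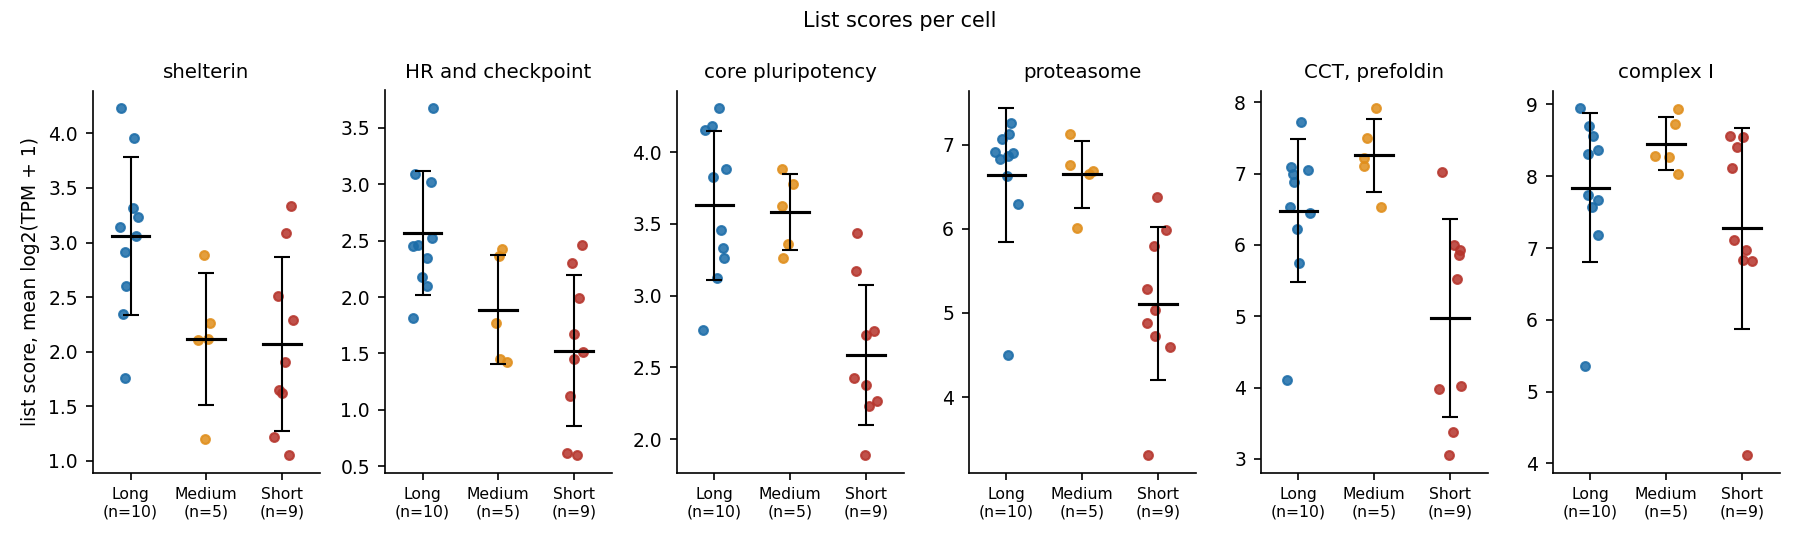
Points are single cells, by list score (y axis, mean log2(TPM + 1) over the list) and telomere class (x axis), with the mean (thick line) and SD (bars) of 10 long, 5 medium and 9 short telomere cells. For shelterin the medium and short telomere cells share a level near 2.1 (means of 2.11 and 2.07), for core pluripotency and proteasome the medium telomere cells lie with the long ones, and 1 long telomere cell, Long_4, is low in proteasome and complex I genes.

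Cells within a side varied widely. The SD across cells was larger in shorter than in long telomere cells for 2552 of the 5171 genes (49.4%), and 796 genes were above TPM 1 in all 10 long telomere cells, 507 in all 14 shorter ones and 426 in all 24. The differences had no visible relation to the length of the gene's longest annotated transcript (Spearman's rho 0.02 across 4688 genes with a value). They had a weak one to the GC content of that transcript (-0.12). Genes are not independent replicates, and these coefficients are descriptions across genes of the same cells.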

How the data were processed

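The authors aligned reads of 50 bp with TopHat (build hg19) and deposited 1 table of TPM values. The submitters' processing notes also name RSEM, whereas the methods name HTSeq. The 25610 genes read end at ZFR in alphabetical order, and later genes were not analysed here. Depth is unknown from TPM, and no counting error could be given. The PluriNet score of the study's supplement selected cells below 3. Recomputed from TPM, it deviated by at most 0.154. The members and gene lists were chosen with earlier results of these data known.

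Differences are of mean log2(TPM + 1), over genes of at least 10 TPM on average and above TPM 1 in at least 6 cells. Cells are not replicates, so no test was run. Named genes were the 12 highest and lowest by difference, the 5 highest and lowest by percentage of pairs, the 2 highest and lowest of each of 30 lists, and whole shelterin, pluripotency and study lists; not all are printed. Alternatives changed the pseudocount, filter, scaling, score limit, telomere class, detection limit and cells. Calculations were tested on simulated data. Python 3.11.15, numpy 2.4.6 and pandas 2.3.3 were used.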

Additional observations from a re-analysis of the deposited data

Results flagged for a closer look

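Single cells that stood far from the rest of their telomere class were looked for in 366 groups of values (each named gene, list score and cell measure within the 10 long, 5 medium or 9 short telomere cells), by the gap to the nearest cell as a share of the whole range. A cell stood apart in 64 groups, where chance alone flags about 1 in 20, and values piled up at 0 make such gaps common. Gene and list values below are on the log2(TPM + 1) scale.

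Long_4 accounted for 18 of them. Its score was 1.80, with the nearest long telomere cell at 2.52. Its list scores were 5.36 for complex I (nearest 7.18), 6.14 for complexes II to IV, 8.62 for cytosolic and 2.60 for mitochondrial ribosomal proteins, 4.50 for the proteasome, 4.44 for the spliceosome, 7.19 for actin and thymosin and 6.76 for the study's oxidative phosphorylation genes. It was also the lowest long telomere cell for MIEN1 at 1.47, ALG5 at 0.00, COPS5 at 0.90, RPS15 at 10.31, SNRPD2 at 8.52, L1TD1 at 2.95, UQCRQ at 2.89, COX5B at 4.52 and ATP5F1 at 2.38. Leaving it out changed the number of genes higher by at least 1 from 1554 to 1733.

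The other long telomere cells were set apart by few genes. COQ4 reached 0.73 in Long_2 and FAM216A 7.11 in Long_46. Long_52 was at 3.14 for CSNK1A1 and at 5.79 for APITD1, and Long_6 at 6.89 for TINF2 and at 4.27 for TOPBP1. Long_69 was low in CCT5, at 2.99, and in mitochondrial-like nuclear transcripts, at 6.45. Long_78 was at 6.13 for TERF2IP and 3.98 for MRPL15.

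Medium_7 was at 10.64 for PPAP2A, 7.14 for RPA1, 1.28 for IFT57, 1.08 for ACD, 8.35 for SNRPD2, 3.10 for PFDN2 and 0.00 for MRPS17 and SERF2-C15ORF63. Medium_20 had a summed ribosomal protein TPM of 263975 (nearest 159287) and was at 13.89 for RPS15, 4.85 for ATP5C1, 1.70 for MRPL43 and 0.00 for MIR3655. Medium_19 had the highest mitosis score of the class, 5.50 (nearest 3.34), and was at 2.99 for TOPBP1. Medium_16 was at 3.21 for UBQLN1 and 6.90 for CHEK1, and Medium_23 at 5.84 for TERF2IP and 0.36 for RPA3.

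Among short telomere cells, Short_6 had list scores of 4.11 for complex I and 7.11 for cytosolic ribosomal proteins and was at 6.49 for RPL38 and 0.00 for SERF2-C15ORF63. Short_14 was at 7.65 for WDR61, 9.70 for TERF2IP, 8.86 for CHEK2 and 0.44 for TMEM70. Short_12 was at 4.10 for ALG5 and 2.60 for SALL4, and Short_7 at 6.03 for ACD and 3.24 for TINF2. Short_9 was at 6.85 for RPA1 and 0.00 for MRPS17, Short_8 at 3.27 for GDF3, Short_13 at 5.69 for UBQLN1 and Short_15 at 0.11 for CCT5.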

How the results depend on the processing

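The number of genes higher and lower by at least 1, 1554 and 789, became 845 and 210 (80.1% higher) with a pseudocount of 10, 2195 and 1291 with no filter, 819 and 261 with a mean of at least 50 TPM, 1174 and 1355 (46.4%) under median ratio scaling, 936 and 1201 (43.8%) against medium telomere cells alone, 1316 and 521 for scores below 3.2, 1044 and 1028 (50.4%) for scores of 2.3 to 3 and 1273 and 1206 (51.4%) in the shared range of detected genes. Median ratio scaling moved the median of all genes from 0.31 to -0.09. Leaving out each of the 24 cells in turn gave 1419 to 1733 and 672 to 921 genes.

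Against medium telomere cells alone, the list score differences were 0.05 for mismatch repair and core pluripotency, -0.42 for p53 targets and heat shock genes, -0.40 for complexes II to IV, -0.05 for ATP synthase, 0.15 for glycolysis, -0.01 for the proteasome, -0.77 for CCT and prefoldin, -0.39 for DNA replication, -0.44 for the spliceosome, -0.43 for actin and thymosin and -0.58 for ferritin and antioxidant genes. The ATP synthase difference, 0.90, was 1.43 against short telomere cells, 0.33 under median ratio scaling and 0.31 for scores of 2.3 to 3. Under median ratio scaling the study's negative list went from -1.17 to -1.81. Shelterin stayed between 0.70 and 1.34 and homologous recombination and checkpoint genes between 0.51 and 1.32 over all alternatives, and leaving out any cell gave 0.84 to 1.11 and 0.79 to 0.99.

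Among named genes past 1, signs turned for NANOG (-0.33), GDF3 (-0.05), DNMT3B (-0.51), LDHA (-0.36) and SLC16A1 (-0.07) against medium telomere cells alone, and for PARN with medians over cells (-0.09) and for scores of 2.3 to 3 (-0.06). Among those under 1, PMS1 (-1.26 against medium telomere cells alone), POU5F1, SOX2, L1TD1, TERF2, TERF2IP, TINF2 and RPL38 also turned in at least 1 alternative. Of 76 named genes past 1, 18 were under 1 for scores of 2.3 to 3, 18 against medium telomere cells alone, 10 with a pseudocount of 10 and 4 under median ratio scaling, and 7 fell under 1 when some 1 cell was left out. The causes were not tested.

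In 5 cells (Long_37, Long_46, Short_6, Short_8 and Short_12) under 5% of nonzero values were at or below TPM 1. Without them, an alternative chosen after seeing the data, 1431 and 675 genes passed. The difference in detected genes, -64.0, was 66.8 above TPM 0 and 153 above TPM 10, within the SD across cells. No paired analysis was possible because replicate numbers only name cells. With TPM alone, low values cannot be told from missed transcripts.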
